A study of Homo sapiens with 44 samples.

Results

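The genes described here are 10 regulators of entry into mitosis: the cyclins CCNA2, CCNB1, CCNB2 and CCNF, the kinase CDK1, the phosphatases CDC25A, CDC25B and CDC25C, and the inhibitory kinases WEE1 and PKMYT1. They were chosen by name, as a pathway, from the 23367 gene rows of a deposited count table. All 10 passed the filter on low counts and were among the 14534 genes tested. RNA was sequenced from IMR5/75, a MYCN-amplified neuroblastoma cell line of human origin. The cells used here express an shRNA (a short hairpin RNA that lowers its target transcript) directed at MYCN once tetracycline is added. An 18 h thymidine block stopped all cultures as they were about to enter S phase, and after its washout cells were collected at 0, 3, 6, 8, 10, 12, 14, 16, 18, 20 and 22 h. The Tet plus arm received tetracycline and the Tet minus arm did not. The 44 libraries form 22 groups of 2, which the submitters describe as biological replicates. Tetracycline without this hairpin was not analysed here, so the drug and the hairpin cannot be told apart.

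CDK1 with cyclin B is the kinase that starts mitosis, and cyclin A supports it from S phase onward. WEE1 in the nucleus and PKMYT1 at membranes hold the complex inactive by phosphorylating CDK1, and CDC25 phosphatases remove those phosphates. CDC25A also acts earlier, on CDK2 at the start of S phase. CCNF, unlike the other cyclins here, binds no CDK and is the substrate receptor of an SCF ubiquitin ligase. In dividing cells the transcripts of CDK1 and of A and B cyclins rise in G2 and fall after mitosis. MYCN is a transcription factor whose gene is amplified in a share of high-risk neuroblastomas, where it drives proliferation.

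The promoters are shown first, and their part in the courses of the members was not tested. CCAAT boxes, bound by NF-Y, and the cell cycle homology region (CHR) are known elements of G2 promoters, and E2F sites are known from genes of the G1/S transition. RefSeq windows (GRCh38.p14) running from 250 bases before to 50 bases after a transcript start matched 8 of the 10 members by symbol; WEE1 and PKMYT1 had no entry in the table used. Printed below are the 150 bases before the start for 3 genes that rose after release, picked with a CHR match, and for CDC25A, which did not rise. For CDC25C 1 of 4 windows is printed and for CDK1 1 of 2. Letters run 5′ to 3′ on the gene's strand, and capitals mark CHR (TTTGAA, or TTCAAA on the other strand), CCAAT (or ATTGG) and E2F (TTTGGCGC, TTTCGCGC, TTTCCCGC, TTTGCCGC or their reverse complements) matches.
CCNB2, chr15:59104996-59105145, + strand: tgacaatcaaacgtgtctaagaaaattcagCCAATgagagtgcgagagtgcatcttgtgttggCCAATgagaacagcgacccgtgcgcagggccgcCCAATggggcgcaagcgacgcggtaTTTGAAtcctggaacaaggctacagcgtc
CDC25C, chr5:138331805-138331954, - strand: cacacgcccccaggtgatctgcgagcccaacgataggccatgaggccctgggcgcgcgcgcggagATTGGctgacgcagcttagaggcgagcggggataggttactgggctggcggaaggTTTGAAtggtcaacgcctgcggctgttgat
CDK1, chr10:60778328-60778477, + strand: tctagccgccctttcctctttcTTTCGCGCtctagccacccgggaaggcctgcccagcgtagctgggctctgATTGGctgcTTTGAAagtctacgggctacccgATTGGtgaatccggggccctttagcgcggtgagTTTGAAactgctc
CDC25A, chr3:48188418-48188567, - strand: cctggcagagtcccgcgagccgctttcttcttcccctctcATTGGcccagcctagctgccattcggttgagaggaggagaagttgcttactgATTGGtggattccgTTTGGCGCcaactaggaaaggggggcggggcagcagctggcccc

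CCAAT or its reverse lay in a window of 8 of the 8 matched members, against 34.6% of 35114 windows of the same length in the table. CHR letters lay in a window of 4 members, CCNB2, CCNF, CDK1 and CDC25C (2 of its 4 windows), against 15.2% of windows. CCNA2 and CCNB1, which also rose from 0 to 6 h in Tet minus, held none of these letters, nor did CDC25A and CDC25B. Only TTTGAA and its reverse complement were searched, so a CHR with other letters would have been missed. In CCNB2 the CHR match starts 29 bases before the start, after 3 CCAAT matches within the printed stretch, and in the printed CDC25C window it starts 30 bases before the start. E2F letters lay in CDK1 and CDC25A, against 3.31% of windows, and in CDC25A the match starts 44 bases before the start. The members have 1 to 4 windows each, so per gene the shares are higher: 39.7%, 18.2% and 3.99% of 27303 genes hold CCAAT, CHR and E2F letters. These matches describe letters only, and no factor binding was measured here.

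Library totals ranged from 10.9 to 25.3 M (mega) gene counts (median 20.1 M), and a member's count in a library ranged from 132 (CDC25C) to 15153 (CCNB1). At 0 to 14 h both arms shared lanes. From 16 h on, the Tet plus titles name no arm, and those of replicate 2 carry numbers other than the sampled hours. Arm and time were taken there from the submitters' descriptions alone, and every late Tet plus result rests on them. Lane numbers and title form differ between the arms in the late libraries, so arm and lanes cannot be told apart. The labels do not say whether they were sequenced separately. Among these late libraries, ERCC spike-in transcripts made up 0.0543% to 0.376% of counts in the 8 of Tet plus and 1.13% to 3.43% in the 8 of Tet minus, and small nucleolar RNAs took 0.935% to 2.41% against 0.289% to 0.713%. The shRNA's target, MYCN, gave a log2 fold change of -0.27 for Tet plus against Tet minus over 0 to 14 h (SE 0.0460, adjusted p = 2.71e-05), where 21.3% of all genes were lower. Its mean was lower at 7 of these 7 times, a count not made over all genes. At single times it passed at 1 of the 7, 12 h (-0.45, adjusted p = 0.0343). At the others adjusted p ran from 0.0535 (6 h) to 0.858 (0 h). Of 12 noradrenergic neuroblastoma markers, 10 passed the filter, among them HAND2 and GATA3, and TH and STMN2 did not. The summed level of the 12 was 997 to 2152 CPM (counts scaled to the TMM-adjusted library size). Of the other cell types checked, epithelial markers summed to at most 2.58 CPM, with KRT19 at 0, blood markers to at most 4.19 CPM, with CD3E at 0, and mesenchymal or Schwann-like markers to 164 to 446 CPM. In each window, 0 to 14 h and 16 to 22 h, 5 of the 10 tested noradrenergic markers, 2 of 5 mesenchymal or Schwann-like and 1 of 2 epithelial ones were higher in Tet plus, and of 2 blood markers 0 in the first and 1 in the second. Of all genes 20.1% were higher at 0 to 14 h. At 16 to 22 h 53.1% of all genes differed in either direction, and 26.8% were lower. The mesenchymal or Schwann-like sums at 16 to 22 h were 201 to 424 CPM in Tet plus against 214 to 386 CPM in Tet minus, and the part of these markers in the results was not tested. Throughout, adjusted p is from the quasi-likelihood test of edgeR, adjusted by Benjamini-Hochberg over all 14534 genes, and a gene is said to rise or fall when it is under 0.05. Unless a block is named, replicates are not paired between the arms. Shares of all genes are from the fit without a block, and those under a block are not given here. In a bulk library fewer cells in a cycle phase and less RNA per cell cannot be told apart, so each value below joins the position of the culture in the cycle and the level per cell.

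In Tet minus cells the A and B cyclins, CCNF, CDK1 and CDC25C were highest at 8 or 10 h and stood lower at 0 h and at 14 h. CCNB1, the main mitotic cyclin, stood at 154 and 159 CPM at 0 h (replicates 1 and 2), 181 and 167 at 3 h, 372 and 436 at 6 h, 585 and 712 at 8 h, 575 and 615 at 10 h, 457 and 489 at 12 h, and 277 and 278 at 14 h. Its mean at the peak was 4.11 times that at 0 h, and the libraries of 8 and 10 h overlapped. In Tet plus cells CCNB1 stood at 136 and 110 CPM at 0 h, 149 and 152 at 3 h, 307 and 230 at 6 h, 501 and 448 at 8 h, 584 and 645 at 10 h, 490 and 537 at 12 h, and 329 and 273 at 14 h. Its highest level, 5.03 times that at 0 h, came at 10 h, where the libraries overlapped with those of no other time.

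Between 0 and 6 h, compared within 1 set of lanes, 7 of the 10 members rose in Tet minus cells and 6 in Tet plus cells, where 1.86% and 1.78% of all genes rose. CCNF rose by 1.34 (SE 0.146, adjusted p = 1.23e-06) in Tet minus and by 0.77 (SE 0.145, adjusted p = 0.00237) in Tet plus. CCNB2, the other B cyclin, rose by 1.15 (SE 0.151) and 0.87 (SE 0.151). WEE1 rose by 0.65 in Tet minus (SE 0.161, adjusted p = 0.0236), and in Tet plus its value was 0.48 (adjusted p = 0.121, and 0.0127 with replicate number as a block). CDC25A was the 1 member that fell, with -0.46 in Tet minus and -0.63 in Tet plus, where 0.489% and 0.729% of genes fell. The difference between the arms in this change passed for 0 of the 10 members and 0% of genes, with 1 member at an unadjusted p under 0.05, and for 0 members by DESeq2. In Tet plus 3 members passed without Tet plus 6 h replicate 1, with CCNA2, CCNF, CDK1 and CDC25C lost (adjusted p 0.0749 to 0.179), and the CDK1 and CDC25C calls also ended without either 0 h library, the CCNA2 call without 0 h replicate 2. In Tet minus the WEE1 call was lost on removing any of 3 libraries (adjusted p reaching 0.359 on removing 0 h replicate 2), the CDK1 call without 0 h replicate 1 or 6 h replicate 2 (up to 0.193) and the CDC25A call without 6 h replicate 1 or 0 h replicate 2 (up to 0.0747).

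**Figure D1:**
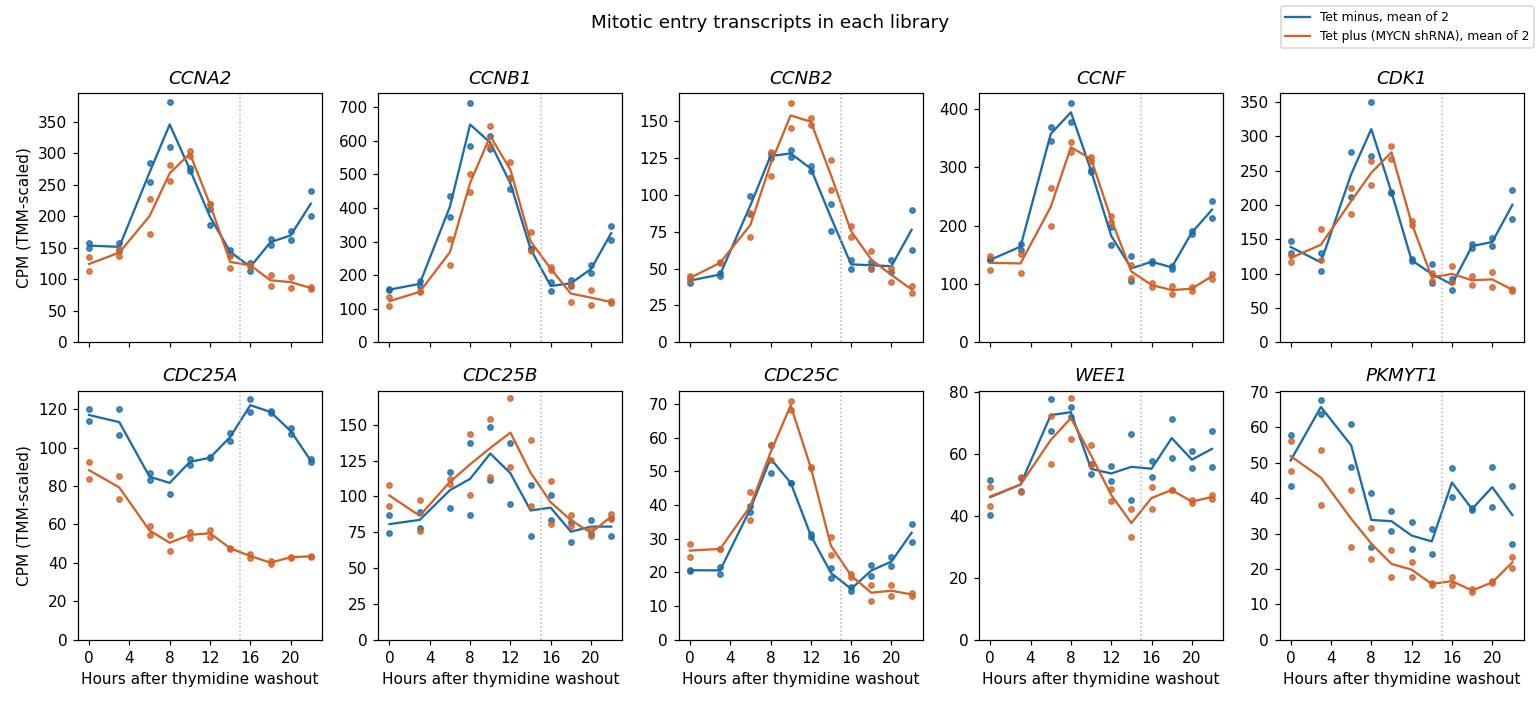
Level of each of the 10 transcripts (CPM, TMM-scaled, vertical axis from 0) against hours after thymidine washout, 1 panel per gene; points are single libraries, lines the means of 2, blue Tet minus and orange Tet plus, and the dotted line marks where the Tet plus libraries change lanes. CDC25A stays lower in Tet plus at all 11 times, and at 22 h CCNB1 stands at 305 and 346 CPM in Tet minus against 124 and 116 in Tet plus.

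The phosphatases did not share a course. CDC25C, which acts on CDK1 at mitotic entry, followed the cyclins: it stood at 20.8 and 20.6 CPM at 0 h and 49.6 and 57.9 at 8 h in Tet minus cells, and at 28.5 and 24.4 and then 71.0 and 68.1 at 10 h in Tet plus. Within 0 to 14 h CDC25A was highest at the block, at 114 and 120 CPM at 0 h in Tet minus, and stood at 75.8 and 87.4 at 8 h and at 104 and 107 at 14 h. In Tet plus it went from 92.6 and 83.8 CPM at 0 h to 46.5 and 54.5 at 8 h and stood at 47.7 and 47.5 at 14 h. CDC25B, the centrosomal starter phosphatase, had replicates far apart, 149 and 111 CPM at 10 h in Tet minus and 169 and 120 at 12 h in Tet plus.

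Of the inhibitory kinases, WEE1 stood at 75.0 and 71.8 CPM at 8 h in Tet minus and 78.1 and 64.9 in Tet plus, against 51.6 and 40.4 and against 49.2 and 43.3 at 0 h. PKMYT1 was highest early, at 63.8 and 67.7 CPM at 3 h in Tet minus and 56.2 and 47.6 at 0 h in Tet plus, and declined to 31.4 and 24.2 and to 16.1 and 15.4 at 14 h. Over 0 to 14 h, 9 of the 10 members changed with time in each arm, all but CDC25B, where 14.5% of genes changed in Tet minus and 10.4% in Tet plus. With the replicate block CDC25B changed too (adjusted p = 0.000120 in Tet minus and 0.000195 in Tet plus). Lanes change along this course, and their part in it was not tested.

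Peak times are described without a test, since each is picked from the values. The median over the members was 8 h in Tet minus and 10 h in Tet plus. Scaled to ERCC transcripts the order was the other way, with the median earlier in Tet plus, as given in the closing section. CCNA2, CCNB1, CDK1 and CDC25C peaked at 8 h in Tet minus and at 10 h in Tet plus, and CDC25B at 10 h and 12 h. In these 5 both replicates of Tet plus peaked later than both replicates of Tet minus, a count that was not made over all genes. Same-numbered libraries of the arms shared lanes, so the replicates are not free of lane effects. The CDC25B peak libraries overlapped with those of 6, 8 and 12 h in Tet minus and of 8, 10 and 14 h in Tet plus. In Tet minus those of CDK1 overlapped with 6 h and those of CCNB1 with 10 h. CCNF and WEE1 peaked at 8 h in both arms, CCNB2 at 10 h and CDC25A at 0 h, and PKMYT1 at 3 h in Tet minus and 0 h in Tet plus. CDK1, for example, went from 272 and 349 CPM at 8 h to 219 and 218 at 10 h in Tet minus, and from 264 and 230 to 268 and 286 in Tet plus.

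**Figure D2:**
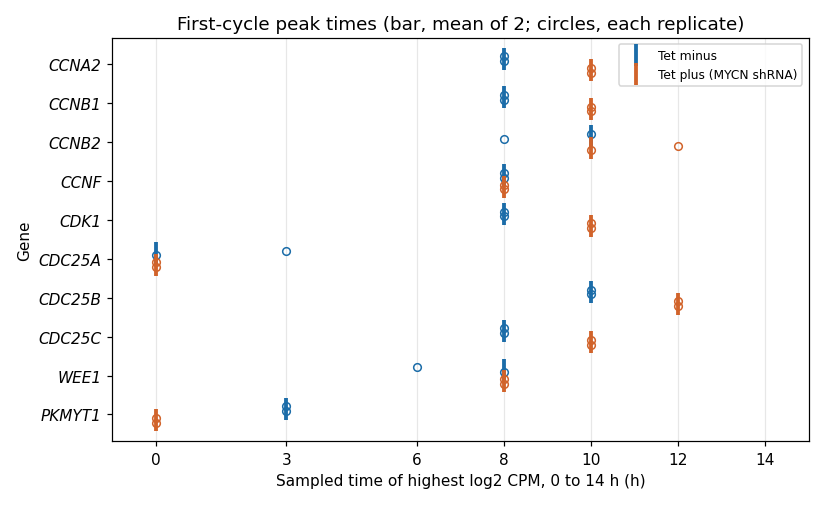
Sampled time of the highest log2 CPM between 0 and 14 h (horizontal axis, h) for each gene (vertical axis); bars give the peak of the mean of 2 libraries and circles the peak of each replicate, blue Tet minus and orange Tet plus. For CCNA2, CCNB1, CDK1 and CDC25C the Tet minus marks are at 8 h and the Tet plus marks at 10 h.

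The change from 8 to 10 h was then compared between arms, a comparison chosen after the peak times had been seen. It was more positive in Tet plus by 0.49 for CCNA2 (SE 0.187), 0.50 for CCNB1 (SE 0.227), 0.67 for CDK1 (SE 0.245) and 0.53 for CDC25C (SE 0.198). The sign for these 4 was fixed beforehand by their peaks at 8 h in Tet minus and 10 h in Tet plus, so it adds nothing to the peak times. Their unadjusted p was under 0.05, but 0 of 10 members and 0% of genes passed after adjustment by edgeR, and 0 members by DESeq2. From 8 to 12 h in Tet minus 4 members fell, where 0.764% of genes fell: CDK1 gave -1.38 (SE 0.177), CCNF -1.11 (SE 0.145), and CCNA2 and CDC25C -0.80 each (SE 0.133 and 0.142). CCNA2 and CDC25C lost the call without Tet minus 8 h replicate 2 (adjusted p 0.0894 and 0.118) or 12 h replicate 2. In Tet plus 1 member fell, CCNF (log2 fold change -0.66, adjusted p = 0.0444), where 0.186% of genes fell, and without any 1 of the 4 libraries it no longer passed (adjusted p up to 0.443). With the replicate block WEE1 fell in both arms as well (-0.45, adjusted p = 0.0436, and -0.61, adjusted p = 0.00740). The difference between arms in this change was largest for CDK1 (0.87, SE 0.246), with 5 members at an unadjusted p under 0.05 and 0 past the threshold by either edgeR, where 0% of genes passed, or DESeq2.

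Averaged over 0 to 14 h, 5 members were lower and 2 higher in Tet plus. Over all genes 21.3% were lower and 20.1% higher, 41.4% in all, so a call on this average is common. CDC25A stood at -0.70 on the log2 scale (SE 0.0351, adjusted p = 7.03e-14), and its 2 Tet plus libraries lay below its 2 Tet minus libraries at 7 of 7 times, as did those of 4.12% of genes. PKMYT1 gave -0.50 (SE 0.0965, adjusted p = 0.000147). CCNB1 and CCNA2 gave -0.19 and -0.16 (SE 0.0609 and 0.0501, adjusted p = 0.0139 and 0.0137). CDC25C was higher by 0.37 (SE 0.0537, adjusted p = 3.19e-06), and its mean was higher at 7 of 7 times, a count not made over all genes. At 6 and 8 h its difference was only 0.03 and 0.05, and the libraries of the arms overlapped. CDK1 gave 0.05 (adjusted p = 0.601). With the replicate block CDC25B (0.19, adjusted p = 0.00175) and WEE1 (-0.12, adjusted p = 0.00916) passed too. The CCNF call (-0.14, adjusted p = 0.0472) ended without any of 20 of the 28 libraries, reaching 0.147 on removing Tet minus 14 h replicate 1, and the CCNB2 call (0.15, adjusted p = 0.0372) without any of 10, reaching 0.0869 on removing Tet plus 14 h replicate 1. Scaled to ERCC transcripts, 0 members passed, CDC25A stood at -0.56 and CCNF turned to 0.04.

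Taken time by time, 14 of the 70 member and time pairs passed at 0 to 14 h, 11 lower and 3 higher in Tet plus, where 1.57%, 2.72%, 7.09%, 3.43%, 3.4%, 4.19% and 5.37% of genes passed at the successive times. With the replicate block by time 24 passed, and the shares of all genes passing with it are not given here. At 6 h, as the cyclins rose, CCNA2, CCNB1, CCNF and CDC25A were lower in Tet plus, with -0.43, -0.59, -0.62 and -0.58 (adjusted p = 0.0478, 0.0246, 0.00899 and 0.000422), where 4.44% of genes were lower. The first 3 no longer passed without Tet plus 6 h replicate 2 (adjusted p 0.296 to 0.574), nor without Tet minus 6 h replicate 1 for CCNA2 and CCNF or replicate 2 for CCNA2 and CCNB1. At 10, 12 and 14 h CDC25C was higher, by 0.58, 0.72 and 0.49 (adjusted p = 0.0178, 0.00308 and 0.0408), where 1.36%, 1.62% and 2.04% of genes were higher. At 12 h it stood at 31.5 and 30.4 CPM in Tet minus and 51.1 and 51.1 in Tet plus. The 10 h call ended without any of the 4 libraries (adjusted p up to 0.149), the 14 h call on removing any of 3 (reaching 0.439 for Tet plus 14 h replicate 1) and the 12 h call without Tet minus 12 h replicate 2 (0.0583). WEE1 was lower at 14 h (-0.57, adjusted p = 0.0361), and this rested on Tet minus 14 h replicate 2 at 66.3 CPM against 45.2 in replicate 1, without which adjusted p was 0.498; removing Tet plus 14 h replicate 1 ended it too.

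CDC25A was the member whose arm difference passed at every one of the 11 times, from -0.41 at 0 h and -0.51 at 3 h through -0.69 at 8 h and -1.15 at 14 h to -1.56 at 18 h and -1.10 at 22 h. The genes lower in Tet plus made up 1%, 1.7%, 4.44%, 2.06%, 2.04%, 2.57% and 3.34% at the successive times of 0 to 14 h. The 0 h call was lost on removing any 1 of its 4 libraries (adjusted p reaching 0.247 for Tet plus 0 h replicate 2), and the 3 h call without Tet plus 3 h replicate 2 (0.165). Whether the difference varied over 0 to 14 h was tested for each gene: 0 of 10 members passed by edgeR, where 0.0138% of genes did, 6 had an unadjusted p under 0.05, and 1 passed by DESeq2. CDC25A gave adjusted p = 0.275, and 0.0416 with the replicate block by time. PKMYT1 passed at 0 of these 7 times by edgeR without the block, while with the block by time it passed at 3, 6, 10, 12 and 14 h (adjusted p 0.00335 to 0.0395). The shares of all genes passing with that block are not given here.

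**Figure D3:**
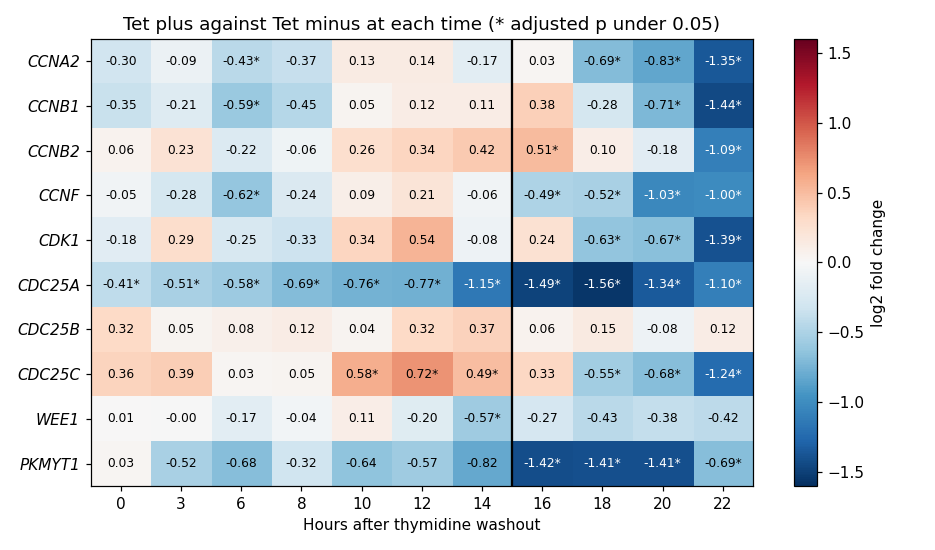
Log2 fold change of Tet plus against Tet minus for each gene (rows) at each time (columns, hours after washout); blue is lower and red higher in Tet plus, an asterisk marks adjusted p under 0.05, and the black line marks where the Tet plus libraries change lanes. The CDC25A row is negative throughout, -0.41 to -1.56, and at 22 h 8 of the 10 genes carry an asterisk and are negative.

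At 16 to 22 h most members were lower in Tet plus. Averaged over 16 to 22 h, 8 members were lower in Tet plus and 0 higher by edgeR, and DESeq2 also called 8, where 26.8% of genes were lower and 53.1% passed in either direction. CDC25A gave -1.37 (SE 0.0475, adjusted p = 1.04e-17), PKMYT1 -1.23 (SE 0.132), CCNF -0.76 (SE 0.0729), CCNA2 -0.71 (SE 0.0671), CDK1 -0.61 (SE 0.0879), CDC25C -0.53 (SE 0.0741), CCNB1 -0.51 (SE 0.0811) and WEE1 -0.37 (SE 0.0810, adjusted p = 0.000345). CDC25B gave 0.06 (adjusted p = 0.705). CCNB2 gave -0.16 (adjusted p = 0.0694, and 0.0391 with the replicate block by time). The ERCC and small nucleolar RNA shares given above differ between the arms at these times. Depth differs too, with a median of 12.4 M gene counts in the 8 late Tet plus libraries and 21.9 M in the 8 of Tet minus. The part of these shares and of depth in the arm differences was not tested. Scaled to ERCC transcripts, the median of all genes moved from 0.02 to 4.40 and all 10 members were higher in Tet plus, so these values are relative to the other genes of a library.

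The direction also changed within these hours. At 16 h CCNB2 was higher in Tet plus, at 79.1 and 71.3 CPM against 49.9 and 55.7 (log2 fold change 0.51, adjusted p = 0.0132), where 12.9% of genes were higher; the call ended without replicate 1 of either arm (adjusted p up to 0.140). CCNB1 gave 0.38 and CDC25C 0.33, which did not pass without a block and passed with the block by time (adjusted p = 0.0363 and 0.0391). By 22 h CCNB2 stood at 33.3 and 38.4 CPM against 62.7 and 89.7 in Tet minus, a log2 fold change of -1.09 (adjusted p = 6.74e-06). Members lower in Tet plus numbered 3 at 16 h, 6 at 18 h, 7 at 20 h and 8 at 22 h, where 14%, 11.2%, 13.7% and 16.3% of genes were lower. At 18 h the CCNF, CDK1 and CDC25C calls ended without Tet plus replicate 1 (adjusted p 0.137 to 0.229) or Tet minus replicate 2, that of CDK1 also without Tet minus replicate 1. At 20 h the CCNB1, CDK1 and CDC25C calls ended without Tet plus replicate 1 (0.0570 to 0.119), that of CDK1 also without Tet minus replicate 2, and at 16 h the CCNF call without replicate 2 of either arm (up to 0.107). At 22 h CCNB1 gave -1.44 (SE 0.165), CDK1 -1.39 (SE 0.178), CCNA2 -1.35 (SE 0.136) and CDC25C -1.24 (SE 0.149), and PKMYT1, at -0.69 (adjusted p = 0.0496), lost the call without either Tet plus library or without Tet minus 22 h replicate 1 (adjusted p up to 0.476).

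In the hours of the second cycle CCNA2, CCNB1, CCNF, CDK1 and CDC25C rose again in Tet minus cells. CCNB1 went there from 154 and 181 CPM at 16 h through 167 and 185 at 18 h and 205 and 231 at 20 h to 305 and 346 at 22 h. In Tet plus it went from 223 and 215 CPM through 121 and 170 and 112 and 155 to 124 and 116. CDK1 rose from 76.4 and 92.1 to 179 and 221 CPM in Tet minus, and in Tet plus had 87.6 and 112 at 16 h and 74.6 and 78.1 at 22 h. CDC25C went from 14.4 and 15.8 to 29.1 and 34.5 CPM in Tet minus and from 18.6 and 19.5 to 12.9 and 14.0 in Tet plus. In CCNB1, CDK1 and CDC25C both Tet minus libraries at 22 h lay above both at 16 h, as in 24% of all genes, and both Tet plus libraries at 22 h lay below both at 16 h, as in 27.1%.

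Between 16 and 22 h in Tet minus 5 members rose, where 1.17% of genes rose: CDK1 by 1.25 (SE 0.177), CDC25C by 1.07 (SE 0.146), CCNB1 by 0.95 (SE 0.163), CCNA2 by 0.88 (SE 0.134) and CCNF by 0.72 (SE 0.145). CDC25A fell by 0.39 (SE 0.0922, adjusted p = 0.0247), where 0.475% of genes fell, a call lost on removing any 1 of the 4 libraries (adjusted p up to 0.266). CCNB2 gave 0.53 (adjusted p = 0.0704, and 0.00799 with the replicate block). Without Tet minus 16 h replicate 1 the CCNB1 and CCNF calls ended (adjusted p = 0.103 and 0.163), and that of CCNF ended also without 22 h replicate 1 or 16 h replicate 2. In Tet plus 4 members fell, where 4.65% of genes fell, and 0 rose by edgeR, DESeq2 also calling 4: CCNB2 gave -1.07 (SE 0.154, adjusted p = 0.000113), CCNB1 -0.87 (SE 0.163, adjusted p = 0.00193), and CCNA2 and CDC25C -0.50 each (adjusted p = 0.0227 and 0.0411). The CCNA2 and CDC25C calls ended without any 1 of the 4 libraries (adjusted p up to 0.155 and 0.269) and the CCNB1 call without Tet plus 22 h replicate 2 (0.0579). Between 16 and 22 h in Tet plus the gene counts went from 13.2 and 19.8 M to 10.9 and 11.3 M and the small nucleolar RNA share from 0.935% and 1.39% to 2.00% and 2.41%, and their part in these changes was not tested.

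The difference between the arms in this change, in which a constant effect of the lanes cancels, was tested directly. It was -1.83 for CCNB1 (SE 0.231, adjusted p = 1.26e-05), -1.63 for CDK1 (SE 0.249, adjusted p = 0.000162), -1.60 for CCNB2 (SE 0.215, adjusted p = 2.77e-05), -1.57 for CDC25C (SE 0.209, adjusted p = 2.69e-05) and -1.38 for CCNA2 (SE 0.190, adjusted p = 3.72e-05), and 7.56% of genes were lower and 11.1% passed in either direction by this test. These 5 calls were kept without any 1 of the 8 libraries. CCNF (-0.51), CDC25A (0.39) and PKMYT1 (0.76) did not pass by this test but did with the replicate block by time (adjusted p = 0.0263, 0.0241 and 0.0296) and within lane sets (0.0256, 0.0171 and 0.00798), CCNF and CDC25A also with these libraries fitted alone and PKMYT1 also without Tet minus 22 h replicate 1. Scaled to ERCC transcripts the 5 values were -1.95, -1.70, -1.71, -1.65 and -1.47 and 0 passed. Over the whole second cycle 6 members changed with time in Tet minus (14 to 22 h), where 0.894% of genes did, and 2, CCNB1 and CCNB2, in Tet plus (16 to 22 h), where 1.91% did. With the replicate block 5 changed in Tet plus, adding CCNA2, CDC25C and PKMYT1, and the share of all genes with it is not given here. The CCNB1 call in Tet plus ended without either 16 h library or 22 h replicate 2 (adjusted p up to 0.106), and in Tet minus the CCNA2 call without 16 h replicate 1 or 22 h replicate 2 (up to 0.106).

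**Figure D4:**
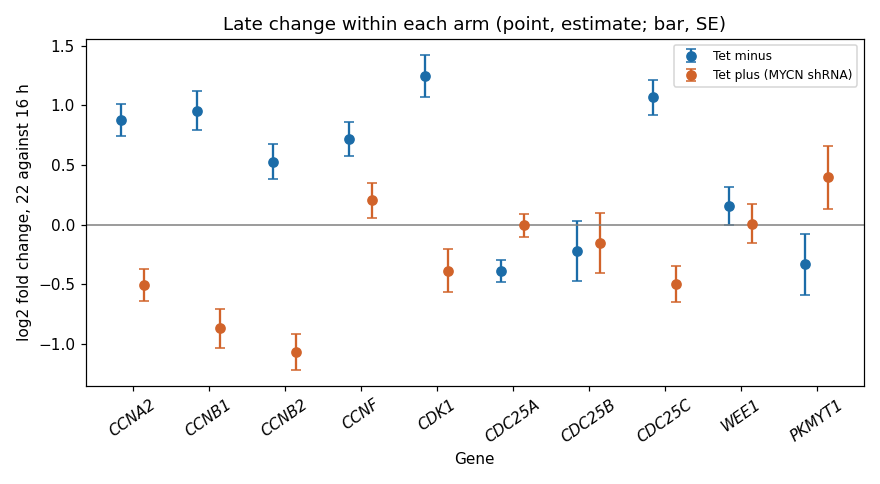
Log2 fold change from 16 to 22 h (vertical axis) for each gene (horizontal axis) within each arm, point estimate with its standard error, blue Tet minus and orange Tet plus. CCNA2, CCNB1, CCNB2, CDK1 and CDC25C lie above 0 in Tet minus and below 0 in Tet plus, for CCNB1 0.95 against -0.87.

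At 22 h the cyclins, CDK1 and CDC25C had returned in Tet minus to 50.3% (CCNB1) to 64.7% (CDK1) of their peak in the first cycle. In Tet plus they stood at 19.5% (CDC25C, with CCNB1 also at 19.5%) to 33.9% (CCNF). The sampled course ends at 22 h, so the height of the second peak is not known in either arm. The 22 h and peak libraries are from other lanes, and lane and time cannot be told apart in these ratios.

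Across the 14 group means of 0 to 14 h, which share libraries and lanes, the likeness of courses is given as Pearson's r of log2 CPM, with no test. Within the members r was 0.97 between CCNA2 and CCNF, 0.95 between CCNF and CDK1 and between CCNB1 and CCNB2, 0.73 between CDC25A and PKMYT1, and -0.69 between CDC25A and CDC25B. Among the 10080 genes whose mean log2 CPM reached 3, the closest to CCNB1 were KIF20A (0.986), KPNA2 and CDC20, and to CCNB2 ARL6IP1 (0.992), DLGAP5 and KIF20A. CCNA2 was closest to FAM72D and C1orf96, CCNF to FAM83D (0.984), KIF23 and FAM72D, and CDK1 to NDC80 (0.969), CKAP2L and C12orf32. CDC25C was closest to NUSAP1 (0.977), CASC5 and CENPI. CDC25A was closest to the replication factors ORC1 (0.976) and MCM10 and the helicase subunit MCM7, and PKMYT1 to MYBL2 (0.981), WDR90 and NCAPD3. CDC25B was closest to LMO7 (0.959), CRELD1 and PCGF3, and WEE1 to ZNF684 (0.926), CENPL and STIL.

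Genes of the same pathway were counted from lists written with earlier results of these data known, so the counts are descriptions. Of 26 other genes of mitotic entry and its checkpoints, 8 were lower and 1 higher over 0 to 14 h (median -0.10, all genes 0.01), where 21.3% and 20.1% of all genes were. The higher gene was CDKN1A, encoding the CDK inhibitor p21 (0.71, SE 0.0681), and among the lower were GSG2, the haspin kinase (-0.29, SE 0.0532), CLSPN, which activates CHEK1 (-0.25, SE 0.0526), and MASTL, which restrains the phosphatase that opposes CDK1 (-0.27, SE 0.0597). At 16 to 22 h 16 were lower and 4 higher, where 26.8% of all genes were lower and 53.1% passed in either direction. Of 15 factors that drive or repress G2/M transcription, 5 were lower and 1 higher at 0 to 14 h (8 and 2 with the replicate block): E2F5 gave -1.02 (SE 0.0696), NFYA, the DNA-binding NF-Y subunit, -0.47 (SE 0.0889), MYBL2 -0.36 (SE 0.0718) and RBL2, a pocket protein that represses with E2F4, 0.26 (SE 0.0559). At 16 to 22 h 12 were lower. Of 14 genes that degrade these proteins, 4 were lower and 1 higher at 0 to 14 h, for the lower a share near the 21.3% of all genes, among them the APC/C subunits CDC23 (-0.36, SE 0.0550) and ANAPC1 (-0.30, SE 0.0567), its inhibitor FBXO5 (-0.23, SE 0.0652) and CDC16 (0.19, SE 0.0624).

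A list of 28 other late G2/M genes, such as mitotic kinesins and kinetochore genes, was counted in the same comparisons. From 0 to 6 h 25 rose in Tet minus and 21 in Tet plus, where 1.86% and 1.78% of all genes rose. Over 0 to 14 h 4 were higher in Tet plus and 2 lower (median 0.01), where 20.1% and 21.3% of all genes were. The former included ASPM (0.20, SE 0.0540), TOP2A (0.19, SE 0.0529) and NUSAP1 (0.19, SE 0.0653) and the latter HMMR (-0.25, SE 0.0866). With the block by time 5 were lower, and 0 to 4 without 1 of the 28 libraries. From 16 to 22 h 21 rose in Tet minus (median 0.84) and 21 fell in Tet plus (median -0.67), where 1.17% of all genes rose and 4.65% fell. The difference between arms in this change passed as negative for 25 (median -1.55), TOP2A giving -2.10, where 7.56% of all genes were lower and 11.1% passed in either direction. Without Tet minus 16 h replicate 1 9 rose in Tet minus, and without Tet plus 16 h replicate 1, 22 h replicate 1 or 22 h replicate 2 the number that fell in Tet plus was 11, 11 and 10. Of 26 G1/S genes, 24 were lower over 0 to 14 h (median -0.44) and 26 at 16 to 22 h (median -1.18), where the same 21.3% and 26.8% of genes were lower, among them the helicase subunits MCM3 (-1.13, SE 0.0529, at 0 to 14 h) and MCM7 (-0.45, SE 0.0475) and the replication factors ORC1 (-0.63, SE 0.0564) and MCM10 (-0.55, SE 0.0510). From 16 to 22 h 1 of these 26 fell in Tet minus and 4 in Tet plus (9 and 5 with the replicate block).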

How the data were processed

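Ribosomal-depleted total RNA with added ERCC mix 1 was sequenced from directional libraries, per the labels' protocols. The authors deposited whole-number read counts per gene; TopHat2 2.0.5, HTSeq and hg19 are named per the submitters' processing notes, with no HTSeq version. Annotation and strand setting: not given in the sources used here. So antisense or overlapping genes may share counts. The 92 ERCC rows were kept out of library sizes and tests.

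The gene test was quasi-likelihood in edgeR 4.0.16 (R 4.3.3; TMM scaling, filterByExpr by group), fitting all 44 libraries together with 22 group means, which leaves 22 residual degrees of freedom. The SE of a log2 fold change was obtained by dividing it by the root of F. A prior count of 2 entered log2 CPM. CPM levels are not per gene length, so levels of different genes were not compared. DESeq2 1.42.0 was an alternative; further alternatives were DESeq2 size factors, ERCC scaling, no filter on low counts, the libraries of a window fitted alone, replicate number as a block within lane sets or by time, and leaving out each library.

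The members, lists and tests were chosen with earlier results of these data known. Named genes are the members, MYCN, the 3 most alike genes per member and up to 4 genes per list by adjusted p. The comparison of 10 with 8 h was added after the peak times were seen.

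Replicate numbers were checked for pairing: deviations of same-numbered libraries of the arms from their group means correlated at each time over 10090 genes (lowest r 0.373 at 0 to 14 h and 0.263 at 16 to 22 h), so numbers were taken to pair the arms. Averages and courses treat different times as independent libraries. No library was a duplicate: the 2 replicates of every group differed beyond sampling noise, with a chi-square of 8.48 to 48.8 per gene. The scripts were tested on simulated counts.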

Additional observations from a re-analysis of the deposited data

Results flagged for a closer look

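The change from 16 to 22 h differed between the arms by a direct test (Tet plus minus Tet minus, log2, edgeR with Benjamini-Hochberg adjustment) for 5 members. The values were -1.38 for CCNA2, -1.83 for CCNB1, -1.60 for CCNB2, -1.63 for CDK1 and -1.57 for CDC25C, with adjusted p from 1.26e-05 to 0.000162. Over all genes 11.1% passed this test. Depth and small nucleolar RNA share of the late Tet plus libraries also moved between these times, and their part was not tested.

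MYCN, the targeted transcript, gave 0.56 by the same test (adjusted p = 0.0367). It went from 1417 and 1408 CPM at 16 h to 1091 and 1244 at 22 h in Tet minus and from 871 and 1012 to 1048 and 1242 in Tet plus, so at 22 h the arms overlapped. Removing any of 7 of the 8 libraries ended the call (adjusted p reaching 0.197 for Tet plus 22 h replicate 2), the exception being Tet plus 22 h replicate 1.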

How the results depend on the processing

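Among the values of members and MYCN, DESeq2 size factors ended 4 calls, the DESeq2 test added 3, and no direction reversed with either. ERCC scaling moved more: 0 members passed for the arm difference at 0 to 14 h, both courses over 0 to 14 h, both second-cycle courses, 6 against 0 h, 12 against 8 h and 22 against 16 h in either arm and the difference between arms in the latter, and 0 member and time pairs at 0 to 14 h, while 40 pairs passed at 16 to 22 h. Median peak times became 7 h (Tet minus) and 6 h (Tet plus) in the first cycle and 22 h in the second in Tet minus, where single replicates left out gave 21 to 22 h against 20 h. Reversed log2 fold changes under ERCC scaling were, for the average of 0 to 14 h, CCNF 0.0399, for that of 16 to 22 h, CCNA2 3.66, CCNB1 3.84, CCNB2 4.22, CCNF 3.62, CDK1 3.75, CDC25A 3.02, CDC25C 3.82, WEE1 4.004, PKMYT1 3.12 and MYCN 4.12, at 6 h CCNA2 0.32, CCNB1 0.16, CCNF 0.10 and CDC25A 0.13, at 16 h CCNF 4.10, CDC25A 3.08, WEE1 4.28 and PKMYT1 3.05, at 18 h CCNA2 3.45, CCNB1 3.83, CCNF 3.67, CDK1 3.54, CDC25A 2.68, CDC25C 3.56, WEE1 3.76 and PKMYT1 2.81, at 20 h CCNA2 3.40, CCNB1 3.48, CCNB2 4.05, CCNF 3.23, CDK1 3.55, CDC25A 2.93, CDC25B 4.17, CDC25C 3.55, WEE1 3.90 and PKMYT1 2.85, at 22 h CCNA2 3.15, CCNB1 3.06, CCNB2 3.42, CCNF 3.48, CDK1 3.11, CDC25A 3.39, CDC25C 3.26, WEE1 4.08 and PKMYT1 3.78, and for 6 against 0 h in Tet plus CDC25A 0.24. The cause was not tested.

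With the replicate block within lane sets 25 pairs passed at 0 to 14 h (24 by time), 1 member (CDC25A) showed a difference that varied over 0 to 14 h (1 by time, and 1 with the DESeq2 test), 2 members fell from 8 to 12 h in Tet plus, 5 changed over 16 to 22 h in Tet plus, and 8 differed between arms in 22 against 16 h (8 by time). The block ended no call of a member. The shares of all genes passing with a block are not given here, so these counts cannot be set against them. With the libraries of a window fitted alone 0 members fell from 8 to 12 h in Tet plus and 1 changed over 16 to 22 h. Leaving out 1 library gave 2 to 4 members for 12 against 8 h in Tet minus and 0 to 0 in Tet plus, 3 to 7 for 6 against 0 h in Tet plus, 3 to 5 and 1 to 2 for 22 against 16 h in Tet minus and Tet plus, and 1 to 2 for the late Tet plus course. With 1 library left in a group, its spread is assumed like that of the others. Groups of 2 libraries limit the calls at single times.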
